A study of Mus musculus with 20 samples.

Results

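The comparison described here set mouse embryonic fibroblasts exposed to actinonin for 48 h against fibroblasts given carrier alone. Samples were assigned by their titles, which placed 4 samples in the 48 h group and 4 in the carrier group, so 8 of the 20 samples of the series entered. The cells came from a Balb/c background, with no other genotype given in the labels, and grew in serum-containing medium with added uridine. The 48 h group received 150 µM actinonin. The carrier group received ethanol at 3 µl per ml and is labelled 0 h, so time in culture and exposure to actinonin cannot be told apart in this comparison. Each sample was RNA pooled from 4 culture plates, amplified and labelled with Cy3 or Cy5, with 2 samples per dye in each group. The labels call the samples independent without naming separate embryos or lines, so the p-values measure only the spread between these samples. The other 12 samples were exposed for 6, 24 or 72 h, and they enter here through the shared estimate of spread and, at the end, as the neighbouring times.

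Actinonin is a peptide-like metallopeptidase inhibitor that blocks peptide deformylase (Pdf). Proteins made on mitochondrial ribosomes begin with formyl-methionine, and Pdf takes the formyl group off. Mammalian mitochondria make a small set of respiratory chain subunits this way, and failure of that synthesis is known to raise ATF4, the transcription factor of the integrated stress response. In that response, kinases phosphorylate the initiation factor eIF2 alpha, general translation falls, and ATF4 with its partner CHOP (encoded by Ddit3) raises genes for amino acid synthesis, amino acid uptake and tRNA charging.

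Of 24250 genes and transcripts tested, 10126 (41.8%) differed between 48 h and carrier at an adjusted p under 0.05 in limma, which is what "called" means throughout. There were 5205 rises (21.5%) and 4921 falls (20.3%). Among the 14242 tested genes with a symbol, from which the lists are drawn, 49.3% were called, 3530 higher and 3490 lower. Counts of called list members below are to be read beside these shares. Most changes were small: 7778 called genes (76.8%) moved by under 0.5 on the log2 scale, and the median size of a called change was 0.32. Changes of at least 2-fold were called for 174 rises (0.718%) and 215 falls (0.887%). Of the 65 gene lists examined, those described most fully below are the integrated stress response, which rose, and cholesterol synthesis and mitosis, which fell. RNA of whole cultures cannot tell fewer cells of a type from less RNA per cell.

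**Figure D1:**
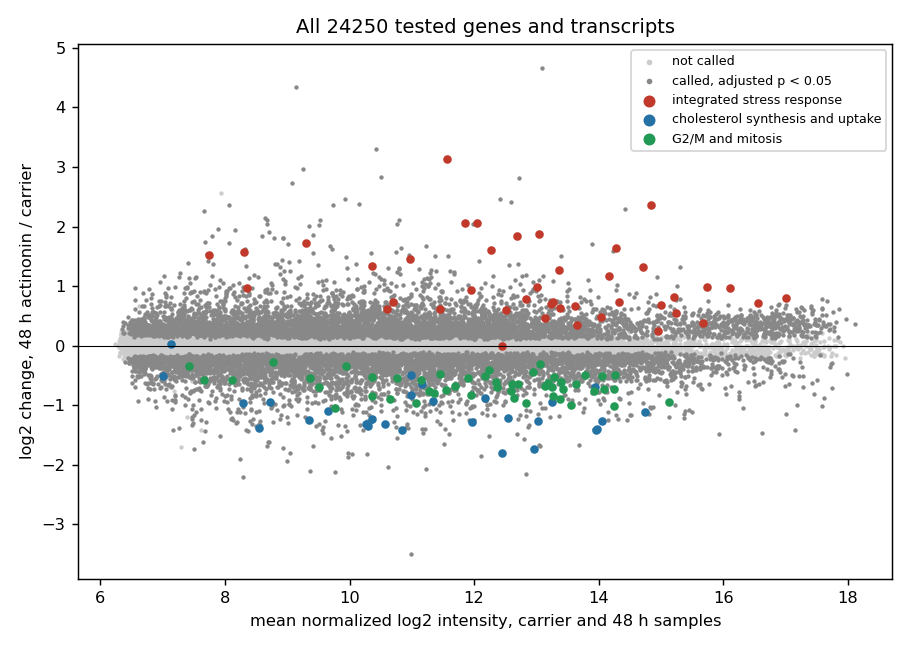
Log2 change at 48 h (vertical, 48 h over carrier) against the mean normalized log2 intensity of the carrier and 48 h samples (horizontal) for all 24250 genes and transcripts tested. Grey points are all genes, dark grey where called; of the coloured lists, 40 of 42 integrated stress response genes were called higher, 27 of 28 cholesterol genes called lower and 50 of 50 G2/M genes called lower.

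Promoters of 5 genes from these 3 groups are shown here with motifs that are known from such genes. They were picked by size of change among list members whose promoter holds the motif, so they do not represent their lists. Sequences are from RefSeq (GRCm38.p6), run from 250 bases before to 50 after the gene's start, and read 5′ to 3′ on the gene's strand. The first 2 belong to integrated stress response genes, Fgf21 (chr7:45615441-45615740, minus strand) and Gars (chr6:55037751-55038050, plus strand), with capitals marking a match to the CHOP-ATF4 composite motif TGATGNAAT on the opposite strand. The third, Hmgcs1 (chr13:119690101-119690400, plus strand), has capitals at a match to the sterol element TCACNCCAC. In the last 2, the mitosis genes Cdc20 (chr4:118437294-118437593, minus strand) and Plk1 (chr7:122159185-122159484, plus strand), capitals mark CCAAT boxes and the cell cycle element TTTGAA.
Fgf21: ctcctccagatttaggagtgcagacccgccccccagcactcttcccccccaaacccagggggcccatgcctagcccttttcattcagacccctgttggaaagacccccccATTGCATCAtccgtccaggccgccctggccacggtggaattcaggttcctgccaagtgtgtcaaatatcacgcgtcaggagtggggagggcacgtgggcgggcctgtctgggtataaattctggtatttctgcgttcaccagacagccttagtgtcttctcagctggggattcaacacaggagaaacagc
Gars: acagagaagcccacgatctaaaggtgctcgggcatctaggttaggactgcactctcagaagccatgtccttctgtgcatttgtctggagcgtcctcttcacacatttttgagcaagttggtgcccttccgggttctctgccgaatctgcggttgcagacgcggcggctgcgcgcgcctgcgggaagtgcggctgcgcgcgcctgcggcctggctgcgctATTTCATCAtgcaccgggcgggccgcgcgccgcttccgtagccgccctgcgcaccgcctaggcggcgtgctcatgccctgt
Hmgcs1: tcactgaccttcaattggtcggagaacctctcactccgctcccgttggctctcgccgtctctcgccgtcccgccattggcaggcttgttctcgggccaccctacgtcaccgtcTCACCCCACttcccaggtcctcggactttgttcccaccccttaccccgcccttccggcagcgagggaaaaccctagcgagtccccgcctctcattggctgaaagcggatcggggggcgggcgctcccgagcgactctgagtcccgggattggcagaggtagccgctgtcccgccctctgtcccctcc
Cdc20: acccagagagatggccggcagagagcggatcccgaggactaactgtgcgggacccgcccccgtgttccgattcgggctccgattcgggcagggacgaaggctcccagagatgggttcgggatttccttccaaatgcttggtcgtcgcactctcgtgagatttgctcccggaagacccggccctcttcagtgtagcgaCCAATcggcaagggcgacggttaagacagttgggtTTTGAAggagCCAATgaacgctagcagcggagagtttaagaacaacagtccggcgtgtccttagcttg
Plk1: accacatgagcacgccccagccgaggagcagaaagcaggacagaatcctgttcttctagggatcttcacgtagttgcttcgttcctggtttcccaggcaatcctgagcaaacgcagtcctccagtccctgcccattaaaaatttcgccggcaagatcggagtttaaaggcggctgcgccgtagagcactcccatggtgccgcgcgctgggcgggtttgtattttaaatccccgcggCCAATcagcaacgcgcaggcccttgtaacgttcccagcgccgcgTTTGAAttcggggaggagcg

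The motifs were searched on both strands of all promoters of this length. TGATGNAAT was in 3 of 33 promoters of the integrated stress response list (9.09%), against 0.547% of the 11328 tested genes with a promoter in the table, and in 1 of 105 promoters of genes called at least 2-fold higher (0.952%). TCACNCCAC was in 1 of 19 promoters of the cholesterol list (5.26%), against 1.08% of tested genes. CCAAT was in 29 of 43 G2/M promoters (67.4%) and 16 of 19 cholesterol promoters (84.2%), against 38.8% of tested genes. TTTGAA was in 29 of 43 G2/M promoters (67.4%), 17.6% of G1/S promoters and 12.3% of tested genes. CCAAT and TTTGAA stood together in 24 of 43 G2/M promoters (55.8%), against 5.22% of tested genes. A match describes letters in this window and is not evidence of binding.

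The 8 samples were read on 2 array slides, and this touches the results. Slide 1 held 2 of the 4 carrier samples (1 Cy3 and 1 Cy5), while slide 2 held the other 2 (2 Cy3 and 2 Cy5) and all 48 h samples; 2 arrays paired a carrier with a 48 h sample. Every test therefore carried slide and dye as terms. Among the carriers, slide and replicate number coincide. A gap between slide 1 and slide 2 carriers therefore cannot be told from a difference between the samples themselves. The share of probes well above background ran from 50.8% to 66.4% in carrier samples and from 53.9% to 70.5% in 48 h samples, and both upper values came from the array that held carrier 2 Cy3 and 48 h 2 Cy5. Before the slide term was removed, the slide 1 carriers were shifted from the slide 2 carriers towards the 48 h level for 13 of the 15 leading rises and 11 of the 15 leading falls. The same held for 15703 of all 24250 tested genes. This compares directions only, and slide 1 carriers could lie past the 48 h level, as for Rspo3 below. Both differences were taken from the same slide 2 carriers, so they tend to share a direction even without a slide shift. These counts therefore cannot show how many genes were shifted by slide. With the slide 2 samples alone, 10670 genes were called, and all 10126 calls above had the same direction there. All 48 h samples lie on slide 2 and slide is a term, so the main estimates already rest mostly on slide 2 samples. That agreement, here and for single genes and lists below, is therefore not an independent check. Without the array whose samples were brightest, 8364 were called. Values per sample below are normalized log2 intensities in the order 1 Cy3, 2 Cy3, 1 Cy5, 2 Cy5, before dye and slide terms, and a change is the fitted log2 difference ± its standard error over 4 and 4 samples.

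The gene with the largest rise was Cdsn, the gene of corneodesmosin, through which cornified skin cells hold together. Its carrier values were 11.50, 10.32, 11.14 and 10.72, and its 48 h values 15.45, 15.21, 15.29 and 15.15. All 48 h samples lay far above all carriers, a rise of 4.66 ± 0.10 (25.2-fold, adjusted p = 1.58e-15), or 4.76 with slide 2 alone. Car6, a secreted carbonic anhydrase, read 7.18, 7.12, 6.66 and 7.03 in carrier and 11.21, 11.49, 11.12 and 11.28 at 48 h. It rose by 4.35 ± 0.14 (20.4-fold, adjusted p = 2.58e-13) with no overlap. Gadd45a, a stress sensor that restrains the cell cycle, was next, with carrier values of 10.00, 9.89, 10.05 and 9.92 and 48 h values of 13.24, 13.24, 13.11 and 13.07, the tightest of these groups. Its rise was 3.13 ± 0.08 (8.77-fold, adjusted p = 2.92e-14).

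Other leading rises covered metabolism, adhesion and secretion. Cox6a2, the heart and muscle form of a cytochrome oxidase subunit, rose by 2.83 ± 0.12 (7.11-fold): the slide 1 carriers read 9.86 and 9.59, the slide 2 carriers 8.72 and 8.72, and the 48 h samples 11.70 to 11.92. Angptl6, a secreted angiopoietin-like protein, rose by 2.81 ± 0.09 and Cxadr, a cell adhesion protein that serves as the coxsackievirus and adenovirus receptor, by 2.73 ± 0.08. Kif21b, a kinesin motor, rose by 2.41 ± 0.09, Acot2, a mitochondrial acyl-CoA thioesterase, by 2.37 ± 0.14, and Phyhd1, an oxygenase of the phytanoyl-CoA hydroxylase family, by 2.29 ± 0.06. The alpha-class glutathione S-transferase genes rose as well, Gsta2 (2.15 ± 0.08) and Gsta1 (2.02 ± 0.08), and their probes may read each other's transcripts. Gm10639, Gdap1l1, B4galnt2, Trib3 and Akr1b7 complete the 15 largest named rises, at 2.26 to 2.46.

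The largest fall was in Cck, the gene of the peptide hormone cholecystokinin. Carrier values were 11.83, 13.10, 11.77 and 13.11 and 48 h values 9.70, 9.22, 9.54 and 9.65. Here the slide 1 carriers were over 1 log2 unit below the slide 2 carriers, yet all 4 exceeded every 48 h sample, and the fitted fall was −3.50 ± 0.09 (11.3-fold lower, adjusted p = 2.92e-14; −3.53 with slide 2 alone). Another peptide hormone gene, Vip, fell by 2.21 ± 0.09 on the log2 scale, from 8.92 to 9.58 in carrier to 7.16 to 7.50 at 48 h. Adcyap1r1, a receptor for PACAP and VIP, fell by 1.80 ± 0.10 and Ramp3, a partner of calcitonin-family receptors, by 1.82 ± 0.10.

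Several leading falls were genes of the matrix and of signals outside the cell. Sfrp2, a secreted Wnt modulator, read 13.62, 14.02, 13.36 and 14.08 in carrier and 11.92, 11.81, 12.05 and 11.81 at 48 h, with no overlap, and fell by 2.16 ± 0.11. Fmod (fibromodulin, a collagen-binding proteoglycan) fell by 2.12 ± 0.11, Has2 (hyaluronan synthase) by 2.07 ± 0.11 and Sod3 (extracellular superoxide dismutase) by 1.86 ± 0.10. The chemokine gene Ccl9 fell by 2.11 ± 0.09, the Wnt antagonist Dkk2 by 1.80 ± 0.08 and Il1rl1, the receptor for interleukin 33, by 1.86 ± 0.12. Slc5a7, a choline transporter, fell by 2.04 ± 0.08, Ifi27l2a, an interferon-inducible gene, by 1.90 ± 0.07 and Lce1g, a cornified envelope gene, by 1.94 ± 0.12. The skin-barrier genes Cdsn and Lce1g thus moved in opposite directions.

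**Figure D2:**
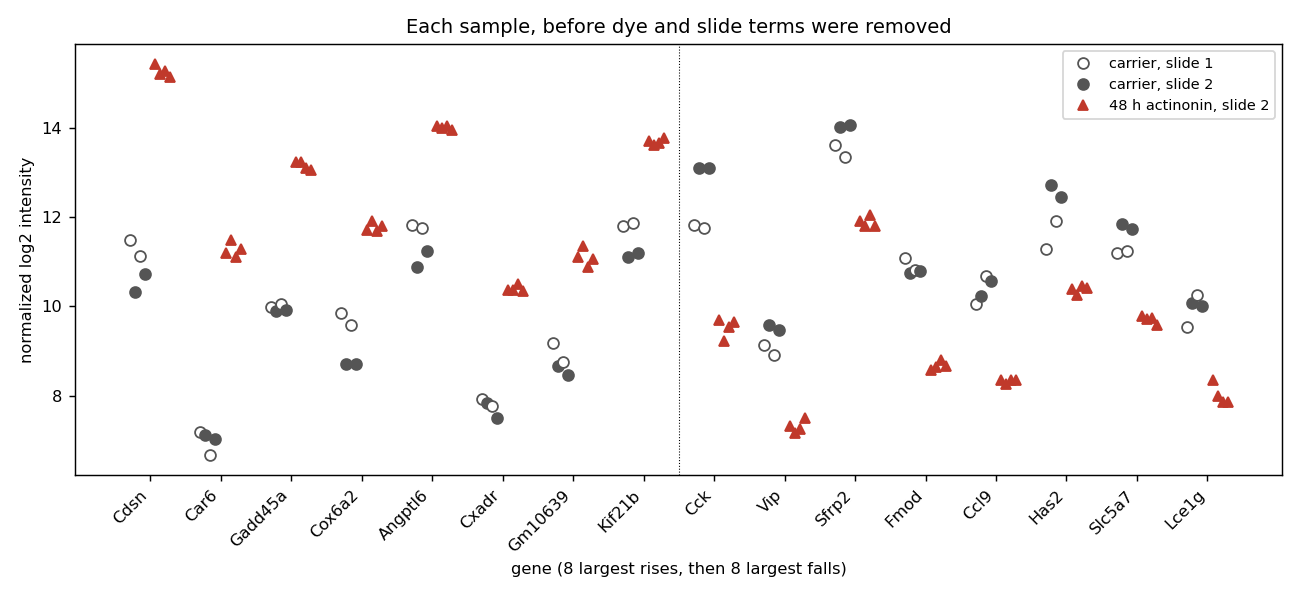
Normalized log2 intensity (vertical) of each carrier sample (circles, open for slide 1) and each 48 h sample (triangles) for the 8 largest rises and 8 largest falls (horizontal), before dye and slide terms. The groups do not overlap for any of the 16 genes, while open and filled circles separate for some, as for Cck, with 11.83 and 11.77 against 13.10 and 13.11.

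Cdsn and Lce1g are best known from keratinocytes. The epithelial markers Krt8, Krt1 and Dsp were not well above background in any sample, and of 6 epithelial markers tested, Krt19 rose by 0.55 ± 0.08, Krt10 was called lower, and 4 were not called. The summed level of the epithelial list was 2833 to 3285 (linear intensity) in carrier and 3500 to 3762 at 48 h. The part of such cells in the Cdsn result was not tested.

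Nearly all integrated stress response genes rose. Of 42 measured targets of ATF4 and CHOP, 40 were called higher and none lower, with 16 at least 2-fold, and the list median was 0.88, against a median near 0 (−0.000381) over all tested genes. Per sample, the median over the list lay between 0.825 and 1.01 at 48 h and between −0.108 and 0.157 in carrier. The 2 members not called were Ddit4 (0.37, adjusted p = 0.051) and Tnfrsf10b (−0.01). With slide 2 alone the counts were the same, 40 higher and 0 lower, with a median of 0.997.

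Atf4, the central transcription factor, rose less than its partners Ddit3 and Atf3 in the fit, although differences between genes were not tested. Its carrier values were 16.37, 16.36, 17.27 and 16.78 and its 48 h values 17.29, 16.84, 17.54 and 17.59, which overlap before dye and slide are removed, and the fitted rise was 0.80 ± 0.09 (1.75-fold, adjusted p = 1.26e-06). Ddit3 read 11.70, 10.74, 11.57 and 10.65 in carrier and 12.88, 12.95, 12.86 and 12.94 at 48 h. It rose by 2.06 ± 0.09 (4.18-fold, adjusted p = 6.61e-12), and the slide 1 carriers were again nearer the 48 h level. Atf3, a stress-induced repressor, rose by 1.73 ± 0.08 and Trib3, a pseudokinase that restrains ATF4, by 2.36 ± 0.13; Trib3 read 13.91, 13.36, 14.63 and 13.30 in carrier and 15.93, 15.71, 15.85 and 15.98 at 48 h.

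Metabolic targets of the response rose too. Chac1, which breaks down glutathione, read 13.43, 13.36, 13.56 and 13.42 in carrier and 15.22, 15.05, 15.09 and 15.07 at 48 h, a rise of 1.65 ± 0.07. Cth, the last enzyme of transsulfuration, rose by 2.07 ± 0.11 (4.19-fold) and Slc7a11, the cystine transporter, by 1.57 ± 0.09. Ndrg1 rose by 1.60 ± 0.06, Herpud1, an endoplasmic reticulum degradation factor, by 0.99 ± 0.07, and Eif4ebp1, a brake on cap-dependent translation, by 0.82 ± 0.08. Asns, asparagine synthetase and a classic ATF4 target, rose by 0.98 ± 0.09, its carriers reading at most 15.82 and its 48 h samples at least 15.95.

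Genes for 3 hormones that cells with failing mitochondria are known to secrete were all called higher. Fgf21, whose promoter with its composite motif is printed above, read 7.14, 6.65, 7.16 and 6.87 in carrier and 8.69, 8.61, 8.57 and 8.28 at 48 h, a rise of 1.52 ± 0.14 with no overlap. Gdf15 rose by 0.74 ± 0.09, from 10.18 to 10.55 in carrier to 10.93 to 11.16 at 48 h. Angptl6 rose the most of the 3.

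The genes of the eIF2 alpha switch itself moved in both directions. Of 10 kinases, phosphatase subunits and relay proteins, 2 were called higher and 5 lower. Ppp1r15a, the stress-induced phosphatase subunit that ends the response, rose by 1.83 ± 0.09, from 11.51 to 12.01 in carrier to 13.49 to 13.68 at 48 h. Among the kinases, Eif2ak3 (PERK, which senses the endoplasmic reticulum) fell by 0.70 ± 0.07, Eif2ak2 (PKR) by 0.46 ± 0.07 and Eif2ak1 (HRI) by 0.29 ± 0.06, while Eif2ak4 (GCN2, which senses uncharged tRNA) rose by 0.23 ± 0.08 (adjusted p = 0.0219), a call lost without carrier 2 Cy5 (0.14), 48 h 1 Cy3 (0.18) or 48 h 2 Cy3 (0.21). Oma1 and Dele1, which relay mitochondrial stress to HRI, were at 0.03 ± 0.08 and 0.00 ± 0.06 and not called.

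Amino acid genes moved in both directions within each list. Of 23 serine synthesis and one-carbon enzymes, 10 were called higher and 4 lower: Psph, the last step of serine synthesis, rose by 1.27 ± 0.09, Phgdh, the first, by 0.55 ± 0.07, and the mitochondrial folate enzymes Aldh1l2, Mthfd2 and Shmt2 by 1.16 ± 0.09, 0.79 ± 0.08 and 0.63 ± 0.09. Of 16 asparagine, proline and transsulfuration enzymes 8 were higher and 5 lower, with Gpt2 (mitochondrial alanine transaminase) at 1.42 ± 0.08, Got1 (cytosolic aspartate transaminase) at 1.1 ± 0.06 and Oat (ornithine aminotransferase) at −0.40 ± 0.05. Of 22 amino acid transporters 12 were higher and 9 lower. The cationic transporter Slc7a3 rose by 1.34 ± 0.08, while the glutamate transporter Slc1a3 fell by 1.26 ± 0.10, the taurine transporter Slc6a6 by 1.17 ± 0.09 and Slc38a4 by 1.06 ± 0.08.

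tRNA charging and ribosomal protein genes rose as groups. Of 20 cytosolic aminoacyl-tRNA synthetases, 14 were called higher and 2 lower (Kars at −0.13 and Qars at −0.18), with a median of 0.48. Wars, for tryptophan, read 14.17, 13.95, 14.23 and 13.97 in carrier and 15.45, 15.36, 15.24 and 15.31 at 48 h, a rise of 1.31 ± 0.07 with no overlap. Lars rose by 1.00 ± 0.08, Eprs by 0.77 ± 0.06 and Gars, whose promoter is printed above, by 0.72 ± 0.07; the Gars groups overlapped before dye and slide were removed (carriers 16.08 to 16.70, 48 h samples 16.69 to 16.96). Of 79 cytosolic ribosomal protein genes, 66 were called higher and 1 lower (Rps27l, a relative of Rps27, at −0.12), by small amounts: the median was 0.33 and the per-sample medians 0.269 to 0.374 at 48 h against −0.0190 to 0.0276 in carrier. Rpl12 rose by 0.67 ± 0.06 and Rps27 by 0.64 ± 0.06. With the arrays scaled only by their medians, 15 of the 79 ribosomal genes were called, all higher, with a median of 0.462. Of 41 initiation and elongation factor genes 17 were higher and 8 lower, and of 50 ribosome assembly genes 18 were higher and 5 lower.

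Mitochondrial genes changed modestly and unevenly. The drug's known target, Pdf, was not called at 0.13 ± 0.05 (adjusted p = 0.0744): it read 11.21, 11.05, 11.23 and 10.97 in carrier and 11.09, 11.17, 11.11 and 11.18 at 48 h, with overlap. Its partners Metap1d, which removes the first methionine after deformylation, and Mtfmt, which adds the formyl group, rose by 0.41 ± 0.06 and 0.25 ± 0.05. Of 5 other tested metallopeptidases named as actinonin targets, none was higher and 3 were lower, Anpep (aminopeptidase N) at −0.33, Mme (neprilysin) at −0.24 and Npepps at −0.13.

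Within mitochondrial protein quality control, 15 of 30 chaperone and protease genes were called higher and 4 lower. Lonp1, the matrix protease of damaged proteins, read 14.91, 14.44, 14.90 and 14.59 in carrier and 16.01, 15.83, 15.91 and 15.90 at 48 h. It rose by 1.32 ± 0.06 (2.50-fold, adjusted p = 3.24e-11), with every 48 h sample above every carrier. Immp2l, a subunit of the inner membrane peptidase, rose by 1.08 ± 0.05, and the matrix Hsp70 system rose in several members: Hspa9 by 0.87 ± 0.06, its co-chaperone Dnaja3 by 0.92 ± 0.06 and Hscb, which serves iron-sulfur assembly, by 0.94 ± 0.09. The chaperonin pair moved little, Hspe1 by 0.32 ± 0.04 and Hspd1 by 0.23 ± 0.06 (not called without carrier 2 Cy5, at 0.18), while the matrix protease Clpp was at 0.12 ± 0.05. The 4 called lower were Phb, Yme1l1, Grpel1 and Parl, at −0.12 to −0.30.

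Among genes that serve mitochondrial translation, changes were small and higher calls were the more numerous. Higher calls outnumbered lower ones among mitochondrial tRNA synthetases (10 and 2 of 22), among factors for mitochondrial DNA, transcription and translation (27 and 3 of 54), and among proteins of the small (15 and 8 of 33) and large (17 and 12 of 48) ribosomal subunits. Those are 45.5%, 50.0%, 45.5% and 35.4% called higher and 9.09%, 5.56%, 24.2% and 25% called lower, against 21.5% and 20.3% of all tested genes. Genes with a symbol, as in these lists, were called more often than all tested genes, with 3530 of 14242 higher and 3490 lower. The list medians were 0.11, 0.14, 0.10 and 0.05, and that of the large subunit was 0.02 without carrier 2 Cy5 and 0.03 without the brightest array. In the 2 arrays that held both groups, the counts higher and lower were 4 and 0, 10 and 0, 2 and 1, and 2 and 1 in the same order. The rRNA methyltransferase Mrm1 rose by 0.56 ± 0.05, Rars2 by 0.52 ± 0.06 and Fars2 by 0.47 ± 0.04, while Mrps6 fell by 0.72 ± 0.05 and Mrpl18 by 0.50 ± 0.06. Lower members of the factor list were Tufm, the mitochondrial elongation factor, at −0.28, with Polrmt and Fastkd5 at −0.21.

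Among nuclear genes of the respiratory chain, lower calls outnumbered higher ones for complexes III to V. In complex I, 5 of 37 subunits were higher and 5 lower (13.5% each), below the 21.5% and 20.3% of all tested genes. Lower calls made up 50%, 46.7% and 62.5% of the tested genes of complexes III, IV and V. In complex III 1 of 10 was higher and 5 were lower, in complex IV 2 of 15 were higher and 7 lower, and in complex V none of 16 was higher and 10 were lower, with medians of −0.16, −0.08 and −0.16; the complex IV median turned to 0.002364 with the arrays scaled only by their medians. Uqcrh, a small complex III subunit, fell by 0.73 ± 0.07, and the complex V subunits Atp5g3 and Atp5k fell by 0.45 ± 0.09 and 0.41 ± 0.05. Against these stood Ndufa6 of complex I, which rose by 0.64 ± 0.05, and in the complex IV list Cox7a2l, a supercomplex assembly factor, at 0.60 ± 0.05 and the muscle isoform Cox6a2 described above. Of 4 complex II subunits, Sdhb was called higher (0.15) and Sdhd lower (−0.36).

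Regulators of the organelle as a whole moved little. Tfam, the packaging factor of mitochondrial DNA, was at 0.07 ± 0.05 and Nrf1, a transcription factor for respiratory genes, at 0.04 ± 0.04, neither called, whereas Pprc1 and Sirt1 rose by 0.45 ± 0.07 and 0.56 ± 0.08. Of 11 fusion and fission genes 3 rose: Dnm1l, the fission GTPase, by 0.55 ± 0.05, its receptor Mff by 0.43 ± 0.05 and Opa1, for inner membrane fusion, by 0.28 ± 0.04; Fis1 fell by 0.17 ± 0.04 by its brightest probe (but stood at +0.13, the opposite direction, with its probes averaged), and the mitofusins Mfn1 and Mfn2 were not called, at 0.01 ± 0.05 and −0.02 ± 0.04. Of 29 import genes 9 were higher and 4 lower, of 30 genes of the TCA cycle and pyruvate entry 7 and 9, and of 19 fatty acid oxidation genes 4 and 6. Those are 31%, 23.3% and 21.1% higher and 13.8%, 30% and 31.6% lower, against 21.5% and 20.3% of all tested genes. Pdk1 and Pdk4, kinases that hold back pyruvate dehydrogenase, rose by 0.45 ± 0.06 and 0.38 ± 0.05. Dhodh, the mitochondrial pyrimidine enzyme whose need the added uridine bypasses, rose by 0.30 ± 0.05, in a list of 15 pyrimidine genes with 3 higher and 5 lower.

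**Figure D3:**
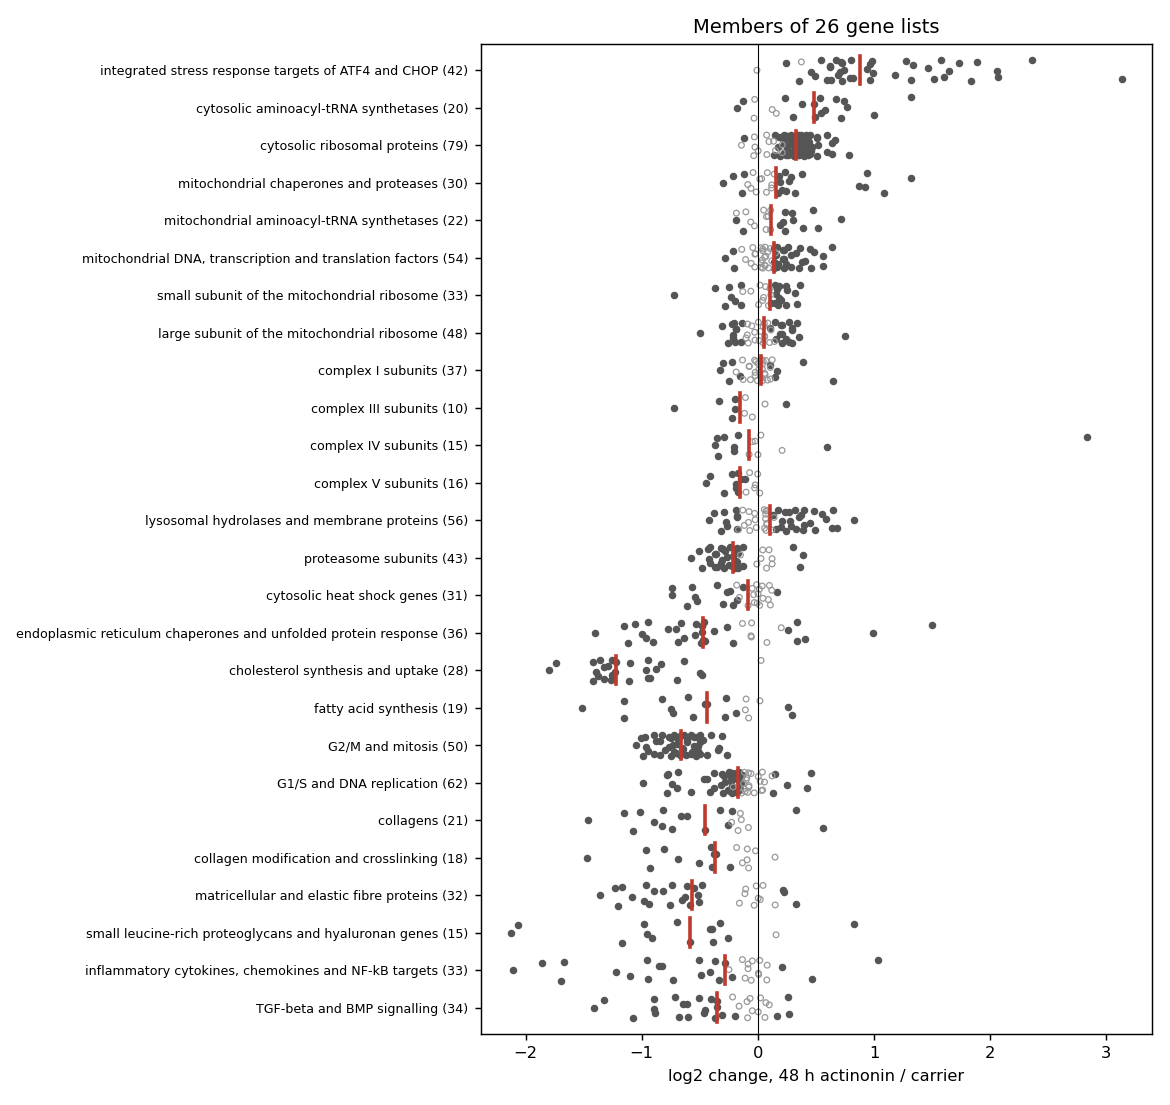
Log2 change at 48 h (horizontal) of each tested member of 26 gene lists (vertical, with the number of members tested), filled where called, with a red bar at the list median. The integrated stress response median lies at 0.88, cytosolic ribosomal proteins at 0.33, G2/M genes at −0.66 and cholesterol genes at −1.22.

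The cholesterol list had the lowest median of the 65 lists. SREBP-2, their shared activator, is held back when sterols are plentiful. Of 28 genes for synthesis and uptake, 27 were called lower, 17 of them at least 2-fold, with a median of −1.22. The per-sample medians were −1.30 to −1.14 at 48 h and −0.0638 to 0.0708 in carrier. The exception was Abca1, a cholesterol exporter, at 0.03. With slide 2 alone the counts were unchanged and the median was −1.28.

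Genes of several steps of the pathway fell. Idi1, an isomerase of the isoprenoid steps, read 13.64, 14.10, 13.73 and 13.80 in carrier and at most 12.20 at 48 h, a fall of 1.74 ± 0.09. Near the start, Hmgcs1, whose promoter with its sterol element is printed above, read 13.55, 15.04, 14.54 and 14.81 in carrier and 13.40, 13.50, 13.57 and 13.40 at 48 h. Its fall was 1.40 ± 0.16 (adjusted p = 1.46e-06), and 1 slide 1 carrier lay among the 48 h samples. Sqle, the squalene epoxidase, fell by 1.42 ± 0.08 and Insig1, which anchors the SREBP complex in the endoplasmic reticulum, by 1.37 ± 0.08. Srebf2, the gene of SREBP-2, fell by 0.63 ± 0.11.

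Most fatty acid synthesis genes fell. Of 19 genes 13 were called lower and 2 higher, with a median of −0.44. Elovl6, an elongase, fell by 1.51 ± 0.06, the desaturases Scd1 and Scd2 by 1.15 ± 0.06 and 1.15 ± 0.08, and Fasn, the fatty acid synthase, by 0.74 ± 0.06. Scd1 read 12.44, 12.25, 12.29 and 12.44 in carrier and 11.20, 11.03, 11.31 and 11.13 at 48 h. Srebf1, the gene of the factor that serves this branch, was not called at −0.11 ± 0.08.

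Genes for protein folding in the endoplasmic reticulum fell while a few stress response members rose. Of 36 genes 24 were called lower and 6 higher, with a median of −0.47. The chaperone Hsp90b1 fell by 1.15 ± 0.07 in the fit; its slide 1 carriers read 15.19 and 15.09, its slide 2 carriers 16.23 and 16.17 and its 48 h samples 14.87 to 15.25, so only the slide 2 carriers stood clear of the 48 h samples. P4hb, a disulfide isomerase, fell by 1.12 ± 0.07, Sdf2l1 by 0.99 ± 0.06 and Creld2 by 0.91 ± 0.06. The 6 higher genes were Ero1a, a disulfide oxidase that CHOP is known to raise, at 1.49 ± 0.09, Herpud1 at 0.99 ± 0.07, and Sel1l, Derl1, Edem1 and Atf6 at 0.26 to 0.41. Of 31 cytosolic heat shock genes 13 were lower and 1 higher (Hspb1 at 0.17, and −0.04 without a slide term), with Hspa1a and Bag3 each falling by 0.74.

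Degradation pathways divided. Of 43 proteasome genes 32 were lower and 3 higher, with a median of −0.22 and per-sample medians of −0.249 to −0.216 at 48 h; with median scaling of the arrays none was called and the median was −0.166. The 3 higher genes were Psmc6 and the immunoproteasome subunits Psmb8 and Psmb9, at 0.30 to 0.39. Of 56 lysosomal genes 26 were higher and 10 lower: Ctsl, a cysteine protease, rose by 0.83 ± 0.06, Hexa by 0.68 ± 0.07 and the calcium channel Mcoln1 by 0.65 ± 0.05. Of 39 autophagy genes 17 were higher and 2 lower, with Bnip3, a mitophagy receptor, at 1.04 ± 0.07 and the cargo receptor Sqstm1 at 0.92 ± 0.07. NRF2 targets showed no shared direction, with 15 of 45 higher and 15 lower (33.3% each, against 21.5% and 20.3% of all tested genes). In the glycolysis and hypoxia list, 16 of 38 were higher and 11 lower, with Pfkfb4 falling by 1.17 ± 0.06 and Pkm by 0.54 ± 0.06.

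Cell division genes fell. All 50 measured G2/M and mitosis genes were called lower, 2 of them at least 2-fold, with a median of −0.66 and per-sample medians of −0.691 to −0.627 at 48 h against −0.0332 to 0.0391 in carrier. Cdc20, an activator of the anaphase-promoting complex, read 14.26, 14.81, 14.26 and 14.96 in carrier and 13.88, 13.78, 14.08 and 13.94 at 48 h, a fall of 1.00 ± 0.05. Plk1, the polo kinase of mitotic entry, read 13.57, 14.18, 13.53 and 14.26 in carrier and 13.29, 13.16, 13.26 and 13.21 at 48 h, a fall of 0.99 ± 0.05. For both genes printed above the groups stood apart, with the slide 1 carriers the nearer. Birc5 (survivin) fell by 0.94 ± 0.05, Ccna2 (cyclin A2) by 0.90 ± 0.05 and Cenpa, the histone of centromeres, by 0.88 ± 0.04.

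Genes of S phase followed in part. Of 62 G1/S and replication genes 36 were lower and 5 higher, with a median of −0.17. Rrm2 and Rrm1, subunits of ribonucleotide reductase, fell by 0.99 ± 0.07 and 0.78 ± 0.04 and Cdc6, which loads the replicative helicase, by 0.78 ± 0.06. The 5 higher genes were Cdt1, Ccnd2, Cdk4, Mcm6 and Gins3, at 0.13 to 0.46.

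No cyclin-dependent kinase inhibitor gene was called higher. Cdkn1a (p21) read 14.41, 14.01, 14.21 and 14.27 in carrier and 13.86, 13.87, 13.99 and 13.88 at 48 h, a fall of 0.23 ± 0.08 (adjusted p = 0.0231). That call was lost without carrier 2 Cy5 (−0.13), 48 h 1 Cy3 (−0.19) or 48 h 2 Cy3 (−0.22). The 1 other probe of Cdkn1a had the opposite direction and was not called. Cdkn2d and Cdkn2c fell by 0.82 ± 0.08 and 0.73 ± 0.07, Cdkn1c, not well above background in any 48 h sample, was at least 1.22-fold lower (adjusted p = 0.00366), and the other 3 of the 7 were not called. Trp53 was at −0.19 ± 0.17 and not called, with carriers from 9.88 to 10.98. Of 32 p53 targets 16 were higher and 9 lower, and the pro-apoptotic genes Bbc3 (PUMA) and Pmaip1 (NOXA) rose by 0.92 ± 0.05 and 0.71 ± 0.06. The other Gadd45 genes moved against Gadd45a, with Gadd45g falling by 0.53 ± 0.07 and Gadd45b by 0.47 ± 0.07. Myc rose by 0.52 ± 0.09, while the immediate early genes Egr2 and Fos fell by 1.19 ± 0.09 and 0.92 ± 0.10.

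Genes of the fibroblast matrix fell. Of 21 collagens 14 were lower and 2 higher (Col18a1 at 0.56 and Col5a3 at 0.33), with a median of −0.45. Col1a1, the main chain of type I collagen, read 17.16, 17.50, 17.03 and 17.34 in carrier and 15.91, 15.82, 16.22 and 15.98 at 48 h, a fall of 1.46 ± 0.08 with no overlap. Col3a1 fell by 1.16 ± 0.10 and Col11a1 by 1.07 ± 0.09. Of 18 genes that modify or crosslink collagen, 11 were lower and none higher, led by Loxl3, Loxl1 and Lox, lysyl oxidases that fell by 1.47 ± 0.07, 0.96 ± 0.08 and 0.93 ± 0.08.

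Other matrix lists fell in the same range. Of 32 matricellular and elastic fibre genes 20 were lower and 3 higher, with a median of −0.57: Postn (periostin) fell by 1.23 ± 0.09, Thbs1 (thrombospondin 1) by 1.20 ± 0.09 and Nid2 by 1.17 ± 0.07. Of 15 small leucine-rich proteoglycan and hyaluronan genes 13 were lower, with a median of −0.59, and Podn alone was higher, at 0.83 ± 0.11. Of 29 matrix metalloproteinases, ADAMTS enzymes and inhibitors 15 were lower and 6 higher, with Mmp11 (stromelysin 3) rising by 0.91 ± 0.05 and the inhibitor Timp1 falling by 0.82 ± 0.09. Of 30 integrin and adhesion genes 11 were lower and 5 higher, with Itgb3 falling by 1.36 ± 0.11 and Itgb7 rising by 1.36 ± 0.10.

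Signals between cells fell as well. Of 33 cytokine, chemokine and NF-kB target genes 18 were lower and 3 higher. The monocyte chemokine Ccl2 read 13.80, 14.73, 13.90 and 14.82 in carrier and 13.05, 12.82, 13.30 and 13.03 at 48 h, a fall of 1.67 ± 0.09. Its neighbour Ccl7 fell by 1.69 ± 0.10 and Cxcl12, a stromal chemokine, by 1.22 ± 0.09, whereas Ccl5 rose by 1.04. Of 34 genes of the TGF-beta and BMP pathways 20 were lower and 3 higher, among them Id4 (−1.41 ± 0.10), the activin binder Fst (−1.33 ± 0.12), Bmp4 (−1.08 ± 0.10) and Tgfb3 (−0.90 ± 0.07). In the interferon list the directions were mixed, with 13 of 32 higher and 7 lower.

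The fibroblast markers that identify these cells fell with the matrix genes. All 15 were well above background in at least 1 sample, 13 were called lower and none higher, and the median was −0.91. Pdgfra and Pdgfrb, receptors for platelet-derived growth factor, fell by 1.1 ± 0.06 and 0.83 ± 0.07, and S100a4 by 1.41 ± 0.13. Fn1 (0.15) and Prrx1 (−0.07) were not called. The summed level of the list was 922870 to 1253100 (linear intensity) in carrier and 598560 to 882140 at 48 h, without overlap. The summed epithelial list, given above, was higher at 48 h without overlap, but the list showed no shared rise. Its median change was −0.04, with 1 of 6 tested markers higher and 1 lower. Only 4 of its 13 markers on the array were well above background in at least 4 of the 8 samples. Of the leukocyte and endothelial markers, Ptprc, Cdh5 and Emcn were not well above background in any sample. However, 6 of 13 leukocyte markers on the array, among them Cd14, Csf1r and Lyz2, were well above background in at least 4 of the 8 samples. So were 5 of 10 endothelial markers, among them Pecam1 and Kdr. None of the 13 tested in these 2 lists was called higher. Muscle and neural markers were mostly not called, with 1 of 7 muscle markers lower, and 1 of 10 neural markers higher and 2 lower. Of 10 adipocyte and cartilage or bone markers, 6 were lower and none higher.

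Reference genes gave a sense of scale. Gapdh was at −0.05 ± 0.06, Tbp at −0.08 ± 0.05 and Hprt at −0.09 ± 0.06, none called, while Actb, the gene of beta actin, fell by 0.48 ± 0.08.

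A further set of genes was well above background in 1 group only, so their change is a bound taken from the detection limit. Try5 was at least 1.81-fold higher at 48 h, and Fut1, a fucosyltransferase, at least 1.65-fold higher, with no carrier sample well above background. In the other direction Agtr2, an angiotensin receptor, was at least 1.87-fold lower at 48 h and Mmp3 (stromelysin 1) at least 1.69-fold lower. The fitted adjusted p was 1.87e-07 for Try5, 1.37e-06 for Fut1, 2.98e-07 for Agtr2 and 5.41e-07 for Mmp3. For these genes, and for Cdkn1c above, the fit used readings in the dim group that were not well above background. Their p-values therefore say nothing about the size of the change beyond the bound. Try5 has close paralogs, and its probe may read them.

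The neighbouring times place the 48 h state. Between 24 h and 48 h, 2941 genes were called (12.1%), 5.77% of all tested genes rising and 6.36% falling. Between 48 h and 72 h, 5624 were called (23.2%), 12.9% rising and 10.3% falling. The 48 h samples shared no array with 24 h or 72 h samples, and both steps use the same 48 h samples, so opposite signs in the 2 steps are not independent. These counts depended on scaling between arrays: with loess alone they were 333 and 1782.

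Most mitosis genes rose from 24 h to 48 h, and most fell from 48 h to 72 h. From 24 h to 48 h 38 of 50 rose and none fell, with a median of 0.29, and from 48 h to 72 h 43 fell and none rose, with a median of −0.30; with loess alone the counts were 7 higher and 17 lower. Plk1 rose by 0.37 ± 0.05 from 24 h and fell by 0.34 ± 0.05 to 72 h. Among smooth muscle contractile genes 10 of 16 rose from 24 h and 8 fell to 72 h; Cnn1 (calponin) rose by 0.66 ± 0.06 and then fell by 0.26 ± 0.06. Against carrier, 4 of these 16 were higher and 2 lower at 48 h.

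Lipid, collagen and lysosomal lists had more falls than rises from 24 h to 48 h and more rises than falls from 48 h to 72 h; these are separate counts for each step. Of the cholesterol genes 14 of 28 fell from 24 h and 12 rose to 72 h, and of 19 fatty acid genes 8 fell and 13 rose. Among collagens 13 of 21 fell from 24 h and 12 rose to 72 h, and Col1a1 fell by 0.60 ± 0.09 and then rose by 0.67 ± 0.09. In other matrix lists, 11 of 32 matricellular, 5 of 15 proteoglycan and 6 of 29 metalloproteinase genes fell from 24 h, and 20, 10 and 15 rose to 72 h. The collagen-modifying list differed in the first step: of its 18 genes 2 rose and 1 fell from 24 h, and 11 rose and 2 fell to 72 h. The lysosomal list had 28 of 56 members falling from 24 h and 38 rising to 72 h. Its per-sample medians were 0.229 to 0.328 at 24 h and 0.313 to 0.351 at 72 h. At 48 h they were 0.197 (1 Cy3) and 0.225 (1 Cy5) but 0.046 (2 Cy3) and 0.083 (2 Cy5). The dip at 48 h thus lay mostly in the samples numbered 2, and the cause was not tested. For lysosomal genes and collagens the counts with loess alone were 1 and 4 falling from 24 h, and 21 and 11 rising to 72 h. Of the stress response genes 12 of 42 rose from 24 h and none fell, and 8 rose and 8 fell to 72 h.

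Single genes moved by larger amounts. From 24 h to 48 h the largest named rises were Crispld2 (1.22 ± 0.09) and Tmem171 (1.19 ± 0.15), and the largest falls Il1rl1 (−0.92 ± 0.12) and Prl2c5 (−0.91 ± 0.10), a proliferin gene with near-identical copies. From 48 h to 72 h the Wnt amplifier Rspo3 rose by 1.66 ± 0.14, the lysophospholipase D gene Enpp2 by 1.58 ± 0.12 and Tenm4, a teneurin, by 1.54 ± 0.09. Cck went on falling, by 1.65 ± 0.09. At 48 h Rspo3 read 10.62, 10.75, 10.64 and 10.69, between its slide 2 carriers (9.72 and 9.85) and its slide 1 carriers (11.40 and 11.46), and its rise of 0.92 ± 0.14 against carrier was 0.89 with slide 2 alone and 0.60 without a slide term.

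**Figure D4:**
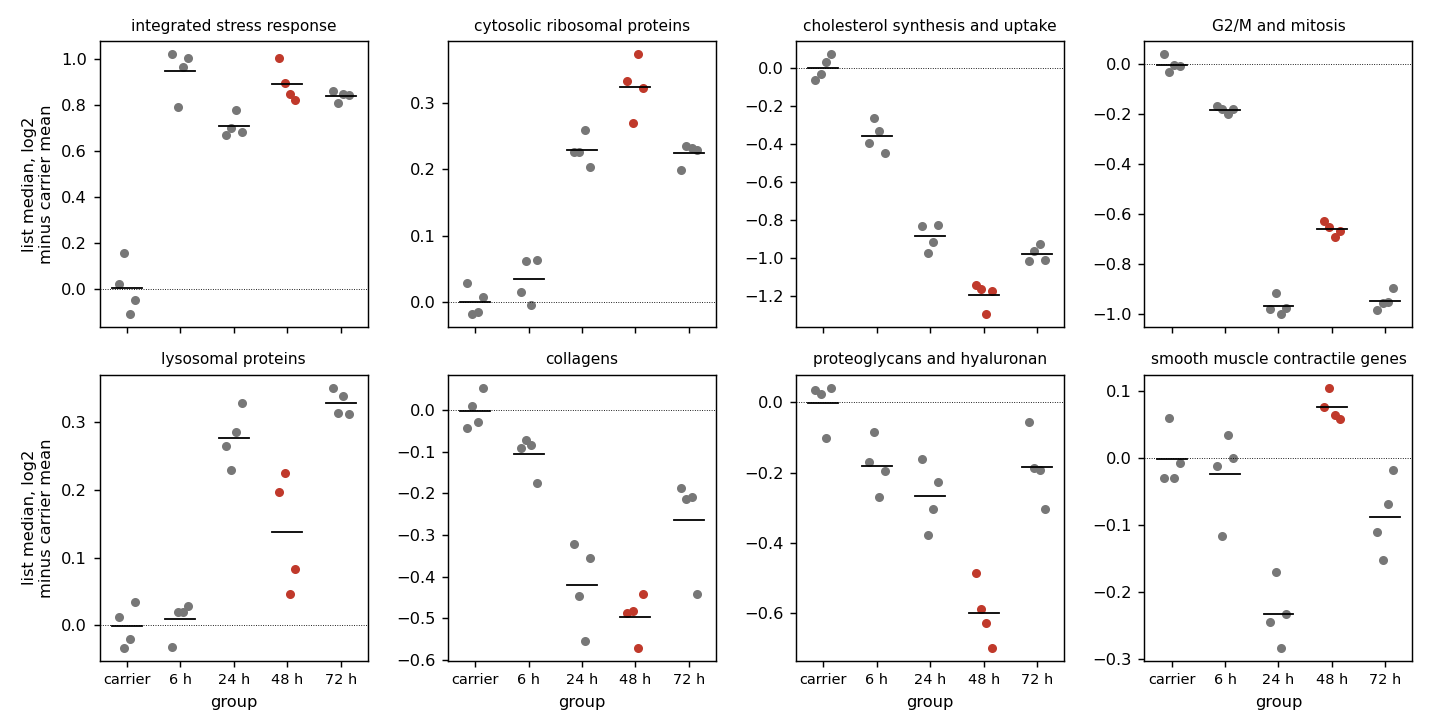
Median over the members of 8 gene lists in each of the 20 samples (vertical, log2 minus the carrier mean, with dye and slide removed) by group (horizontal), with black bars at the group mean and 48 h samples in red. All times share the carrier samples; G2/M medians are −0.691 to −0.627 at 48 h, above those at 24 h and 72 h, while cholesterol medians are lowest at 48 h, at −1.30 to −1.14.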

How the data were processed

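Each sample file held 1 channel of an Agilent 2-colour array as scanned. The deposited spot intensities were extracted with Agilent Feature Extraction 10.7.3.1 on slide 1 and 11.0.1.1 on slide 2, with probes placed on mm9, per the file headers. The deposited matrix of log2 values served as an alternative; limma and R 2.15 are named in the submitters' processing notes. Here, the median pixel intensities of spot and local background went through limma 3.58.1 in R 4.3.3: a normexp correction with an offset of 50, then loess on each array with control and outlier spots at weight 0, then Aquantile across arrays. A probe was kept if 4 or more of 20 samples read it well above background, and genes with several probes were read from the brightest, which left 24250 genes and transcripts, 14242 of them with a symbol from the array or RefSeq. The model had group, dye and slide as terms over all 20 samples and the array as a random block (correlation 0.25). Tests were two-sided with Benjamini-Hochberg adjustment over all 24250, and adjusted p under 0.05 was called. Precision is limited by the number of arrays. The procedure was tested on simulated data. Called genes had 2442 further probes, of which 2124 (87.0%) had the same direction and 67 were called in the opposite direction. For Opa1 and Tenm4 the 1 other probe had the opposite direction at 48 h against carrier without a call. For Prrx1 the 1 other probe was called in the opposite direction. Genes without a well-above-background sample in 1 group got a bound: the mean of the bright group over the mean, per array, of the lowest signal well above background or the dim probe's own, whichever was higher. Coordinates and symbols are from RefSeq (GRCm38.p6). Alternatives covered normalization, filters, model terms and left-out samples.

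The comparison, the gene lists and the alternatives were chosen with earlier results of these data known. Genes were named by rule: the 15 largest rises and 15 largest falls that were called, well above background and without overlap; up to 6 members of each list by smallest adjusted p; the largest bounds and the 8 largest steps per direction between times; and fixed stress and reference genes. The exceptions within lists, the further cholesterol genes, and other members named to show a group were chosen after their values were seen. With dye and slide removed, same-numbered 48 h and carrier samples correlated at −0.607 to 0.0799. As normalized, the range was −0.277 to 0.149, and 0.122 to 0.274 between 48 h and 72 h, where same-numbered samples also share a dye. Replicate numbers were therefore not used as pairs. Some members of the lists are counted but not reported here by name.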

Additional observations from a re-analysis of the deposited data

Results flagged for a closer look

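Among the genes named in the text, 474 groups of 4 samples were examined, and in 16 (3.38%) a single sample stood far from the others by Dixon's criterion (the gap to the nearest sample over the range); chance alone marks about 1 in 20 groups. All values are normalized log2 intensities.

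Carrier 1 Cy3, a slide 1 sample, was that sample for 6 genes. It was higher than the other carriers for Gsta2 (7.868 against 7.469 to 7.506), Ndufa6 (13.52 against 13.31 to 13.32) and Cdk4 (15.14 against 15.03 to 15.05). It was lower for Fasn (9.747 against 9.937 to 9.966), Pfkfb4 (11.14 against 11.42 to 11.43) and Itgb3 (10.85 against 11.47 to 11.60). Carrier 2 Cy5 was low for Eif2ak4 (11.16 against 11.52 to 11.56) and high for Srebf1 (8.226 against 7.876 to 7.930), and carrier 2 Cy3 was high for Birc5 (15.74 against 15.49 to 15.53).

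At 48 h, sample 2 Cy3 was high for Gdap1l1 (11.38 against 11.05 to 11.09) and low for Ccl9 (8.251 against 8.351 to 8.355) and Itgb3 (9.969 against 10.16 to 10.18). Sample 1 Cy3 was high for Il1rl1 (11.27 against 11.08 to 11.10) and Herpud1 (13.67 against 13.45 to 13.47). Sample 1 Cy5 was high for Srebf1 (8.102 against 7.862 to 7.902) and sample 2 Cy5 low for Thbs1 (14.38 against 14.59 to 14.63).

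For the 11 genes whose steps between times are described above, the effect at 48 h differed from that at a neighbouring time in the limma fit. That they differed is therefore not a separate finding. Further genes differed too: all 3 Gadd45 genes and 38 of 50 G2/M genes rose from 24 h to 48 h. The change from 24 h to 48 h and then from 48 h to 72 h was 0.368 and −0.337 for Plk1, 0.664 and −0.264 for Cnn1, 1.22 and −0.629 for Crispld2, and 1.19 and −1.14 for Tmem171. It was −0.597 and 0.667 for Col1a1, −0.635 and 1.58 for Enpp2, and −0.42 and 1.54 for Tenm4. Both changes were falls for Il1rl1 (−0.919 and −0.689) and Prl2c5 (−0.913 and −0.802). From 48 h to 72 h Cck changed by −1.65 and Rspo3 by 1.66.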

How the results depend on the processing

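The count of genes called at 48 h, 10126, lay between 7831 and 10670 under all alternatives run except 2: it was 4610 in the 2 arrays that held both groups, which are 4 samples, and 2238 with arrays scaled only by their medians, where the cause was not tested. Without 1 sample it was 8419 to 10422, and the steps from 24 h and to 72 h gave 2063 to 2370 and 4529 to 5317. With loess and no scaling between arrays those steps gave 333 and 1782 calls, and the cause was not tested. With the replicate number as a block the 3 counts were 10155, 2743 and 5465; the numbers are not known to pair samples. Of 65 list medians, 10 had both signs across the alternatives, all with a value near 0 as reported (−0.0763 to 0.0711): complex II, import, TCA, BCL2, IGF, mTORC1, endothelial, muscle, complex IV, which was 0.002364 with median scaling, and glycolysis, which ranged from −0.008949 (without carrier 2 Cy5) to 0.08353 when 1 sample was left out. Fis1 turned to 0.13 with its probes averaged and Hspb1 to −0.04471 without a slide term. The cause was not tested for these. Of 237 named genes 61 lost their call with median scaling and 34 in the 2 shared arrays. When 1 sample was left out 17 lost it, with changes of 0.116 to 0.299 in size: Cdkn1a, Eif2ak4 and Hspd1, given above, and Atf6, Fastkd5, Gins3, Grpel1, Hspb1, Kars, Mcm6, Mme, Npepps, Parl, Psmb9, Rps27l, Sdhb and Yme1l1. For probes not well above background, signal allowed a bound only.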

Other observations

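The following gene lists were not described above; over all tested genes 21.5% were called higher and 20.3% lower. Of 18 circadian clock genes, 8 were called higher (44.4%) and 2 lower (11.1%) than in carrier. Nfil3 read 12.29, 12.23, 12.44 and 12.15 in carrier and 13.02, 13.04, 13.13 and 13.18 at 48 h, with no overlap, a rise of 0.84 ± 0.07. Ciart rose by 0.99 ± 0.09 and the clock output gene Dbp by 0.81 ± 0.08, while the repressor Nr1d1 fell by 0.41 ± 0.07. For Dbp the slide 1 carriers read 11.72 and 11.39, among or above the 48 h samples (11.35 to 11.47), and the slide 2 carriers 10.63 and 10.58.

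Of 13 genes of the insulin-like growth factor system, 4 were higher and 5 lower. Igf1, the growth factor, read 9.72, 9.43, 9.61 and 9.56 in carrier and 7.89, 7.81, 7.83 and 7.85 at 48 h, a fall of 1.61 ± 0.07 with no overlap. Igfbp4, which binds it, rose by 1.84 ± 0.07, Pappa, the protease that cleaves this binding protein, by 1.31 ± 0.08, and Stc2, an inhibitor of that protease, by 0.97 ± 0.09. Irs1, an adaptor of the receptor, fell by 0.98 ± 0.10.

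Of 19 Wnt ligands, antagonists and targets 9 were lower and 2 higher, with Sfrp1 falling by 1.51 ± 0.11 and Nkd1, a feedback inhibitor, rising by 1.34 ± 0.09. Of 26 genes that restrain mTORC1 or sense glucose 9 were higher and 7 lower: Flcn rose by 0.89 ± 0.06, while Txnip fell by 1.25 ± 0.11 and Deptor by 0.98 ± 0.09. Of 20 immediate early genes 5 were higher and 9 lower, with Klf4 rising by 1.00 ± 0.07, and of 14 BCL2 family genes 3 were higher and 3 lower (21.4% each), close to the share over all genes.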
